A study of Homo sapiens with 18 samples.

Results

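Long noncoding RNAs are long transcripts that carry no known protein, and many but not all are spliced and polyadenylated like messenger RNAs. The RNAs described here were the expressed long noncoding RNAs of 786-O cells, a human clear cell renal cell carcinoma line, after knockdown of RBCK1, ANKRD35 or MITD1. RBCK1 (HOIL-1) is a subunit of the ubiquitin ligase complex that builds linear ubiquitin chains, ANKRD35 is an ankyrin repeat protein and MITD1 acts in the abscission step of cell division. Members were the genes annotated as lincRNA (intergenic) or antisense in the RBCK1 and ANKRD35 expression tables whose mean over the 6 libraries was at least 2 FPKM (fragments per kilobase of gene, scaled to sequencing depth) in both tables. The members were thus chosen by measured level, as the mean FPKM over knockdown and control libraries together, and not by the difference between them. A gene could still pass mainly through the group where it was higher. BAIAP2-DT averaged 4.28 FPKM in shRBCK1 and 1.98 FPKM in shcontrol libraries. AL356234.3, AC245041.1, MIR155HG, AC002467.1 (1.775 FPKM in shRBCK1) and FLJ46906 (1.995 FPKM in shcontrol) were among the other members with a group mean below 2 FPKM. For such genes membership and change are not independent. The rule kept 129 of 13212 lincRNA and antisense genes (58735 genes in all), of which 74 were lincRNA and 55 antisense. A mean of at least 2 FPKM was reached by 279 of the 13212 in the RBCK1 table and by 225 in the ANKRD35 table. Of the members, at least 57 carry only the name of a genomic clone. Just inside the limit, TRAM2-AS1 had table means of 2.001 FPKM (RBCK1) and 2.95 FPKM (ANKRD35), AL138724.1 had 2.04 and 4.48 FPKM, and NOP14-AS1 had 2.05 and 4.26 FPKM, in that order of tables. Just outside it, AC016876.1 had 1.998 and 2.98 FPKM. AC002480.2 had 3.52 and 1.99 FPKM, and AC027307.2 had 11.99 and 1.99 FPKM.

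The 18 libraries formed 6 groups of 3, and each knockdown had its own control. They were shRBCK1 against shcontrol, siANKRD35 against sicontrol_for_siANKRD35 and siMITD1 against sicontrol_for_siMITD1, the last 2 pairs labelled as siRNA. All groups were 786-O cells grown in RPMI-1640 with serum, the labels give no treatment besides the knockdown, and the time after knockdown is not given in the sources used here. No control library is shared between comparisons, and each comparison has a table of its own, so differences were tested only within a table, and levels given side by side across tables were scaled separately. Nothing in the labels says whether the 3 libraries of a group came from separate cultures, so p-values rest on library-to-library variation that may be technical only. The MITD1 table lists symbols only: 46 of the 129 members occur in it (25 lincRNA, 21 antisense), and 42 of them passed its filter on low values. Of the 4 that did not, TGFB2-AS1 averaged 0.70 and LINC02535 0.82 FPKM in siMITD1 libraries, against 0.63 and 1.03 FPKM in their controls, and MIR22HG and RAET1E-AS1 are listed at 0.

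Nuclear long noncoding RNAs such as MALAT1 and NEAT1 are parts of nuclear bodies, the speckles that hold splicing factors and the paraspeckles that hold RNA-binding proteins. Others are host transcripts whose introns are processed into small nucleolar RNAs (snoRNAs), which guide chemical changes of ribosomal RNA, or whose sequence contains a microRNA hairpin. Antisense and divergent transcripts arise from the opposite strand of a coding gene, often next to its start, and are known mainly by their position.

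The knocked-down gene was lower in every knockdown library than in every control library of its table. RBCK1 had 30.8, 32.0 and 32.9 FPKM in shRBCK1 libraries, against 487, 492 and 462 FPKM in shcontrol libraries. ANKRD35 was at 0, 0 and 0.0332 FPKM in siANKRD35 libraries, against 753, 687 and 742 FPKM in their controls. MITD1 had 2.43, 2.66 and 3.03 FPKM in siMITD1 libraries, against 7.16, 7.42 and 7.83 FPKM in their controls. The controls were not alike in these genes: RBCK1 averaged 480 FPKM in shcontrol, 70.8 FPKM in the ANKRD35 controls and 65.5 FPKM in the MITD1 controls, and ANKRD35 was at 0 in shcontrol and averaged 0.0064 FPKM in the MITD1 controls. What sets the controls apart in these genes is not given in the sources used here, so each comparison is between the labelled libraries of its own table and not against a shared baseline of the line. Reads recovered from the values were 16346478 to 18648246 per library in the RBCK1 table and 17502646 to 19034974 in the ANKRD35 table. In the MITD1 table they were recovered for 16664 of 18083 genes with a value, so its depth is known only in part. The summed level of 8 renal carcinoma line markers was 707 to 1676 FPKM over all libraries, while 4 endothelial and 4 blood cell markers summed to at most 0.331 and 0.178 FPKM, and 4 fibroblast markers to at most 3.94 FPKM. All 8 renal markers passed the filter on low values in the RBCK1 and MITD1 tables, and 7 did in the ANKRD35 table.

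Among the members that host microRNAs, MIR155HG was called in all 3 comparisons. MIR22HG, MIR222HG, MIR4435-2HG, NEAT1 and PVT1 were among those called in at least 1. Mature microRNAs of MIR155HG, MIR22HG and MIR222HG (RefSeq, GRCh38.p14) are shown because they are the known product of the host. The seed, bases 2 to 8, is in capitals. Those of the other hosts are not shown. miR-221 and miR-222 are both encoded in MIR222HG on the X chromosome and share their seed.
hsa-miR-155-5p: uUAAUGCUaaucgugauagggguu
hsa-miR-22-3p: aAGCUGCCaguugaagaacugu
hsa-miR-221-3p: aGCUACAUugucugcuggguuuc
hsa-miR-222-3p: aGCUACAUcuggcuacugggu
The levels of mature microRNAs were not analysed here.

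Other hosts carry box C/D snoRNAs in their introns. SNORD60 lies in SNHG19 on chromosome 16, and 3 related snoRNAs lie in ZFAS1 on chromosome 20. Their genomic sequences (GENCODE 29, GRCh38) are shown because SNHG19 and ZFAS1 had the largest changes among the snoRNA host members, with the letters TGATGA of the C box and CTGA of the D box in capitals.
SNORD60: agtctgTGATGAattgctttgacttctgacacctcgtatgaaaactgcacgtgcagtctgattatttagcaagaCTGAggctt
SNORD12: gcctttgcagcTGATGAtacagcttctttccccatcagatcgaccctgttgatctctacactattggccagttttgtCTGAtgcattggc
SNORD12B: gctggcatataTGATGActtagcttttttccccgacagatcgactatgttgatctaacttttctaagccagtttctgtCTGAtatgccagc
SNORD12C: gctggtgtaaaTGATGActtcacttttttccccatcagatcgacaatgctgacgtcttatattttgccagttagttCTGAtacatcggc
SNORD60 lies at chr16:2155023-2155105 on the minus strand and shares no base with an exon of SNHG19. In ZFAS1, SNORD12C (chr20:49278940-49279028) and SNORD12B (chr20:49280319-49280409) are intronic by the annotation. All 90 bases of SNORD12 (chr20:49280683-49280772) overlap an annotated exon of the host.

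MIR155HG and SNHG19 were the 2 members called higher in all 3 comparisons, so the promoters that RefSeq gives for them (250 bases before to 50 after the start, GRCh38.p14) are printed. Capitals mark letters matching an IRF type, an AP-1 type (TGANTCA) or a TATA box (TATAAA) motif, searched on both strands, without any overlap between matches.
MIR155HG promoter: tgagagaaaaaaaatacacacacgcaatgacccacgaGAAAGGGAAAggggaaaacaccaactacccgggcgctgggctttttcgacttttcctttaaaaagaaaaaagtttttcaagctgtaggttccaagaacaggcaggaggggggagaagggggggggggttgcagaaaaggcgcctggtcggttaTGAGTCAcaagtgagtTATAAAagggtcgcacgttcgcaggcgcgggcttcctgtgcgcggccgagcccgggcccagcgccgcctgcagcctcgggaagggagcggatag
SNHG19 promoter: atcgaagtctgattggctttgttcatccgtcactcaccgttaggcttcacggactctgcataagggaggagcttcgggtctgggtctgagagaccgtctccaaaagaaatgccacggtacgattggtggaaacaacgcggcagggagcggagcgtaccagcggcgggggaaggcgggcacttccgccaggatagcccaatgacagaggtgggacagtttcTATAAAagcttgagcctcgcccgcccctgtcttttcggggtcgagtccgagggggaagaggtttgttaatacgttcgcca
The MIR155HG window is chr21:25561895-25562194 (plus strand), and its RefSeq start lies 236 bases from the GENCODE start. The IRF type letters stand 213 to 204 bases before the start, the AP-1 type letters 60 to 54 and the TATA letters 44 to 39 bases before it. The SNHG19 window is chr16:2155309-2155608 (minus strand) and holds the TATA letters 30 to 25 bases before the start. RefSeq promoters were matched for 47 of the 129 members. IRF type letters were in 4.26% of them and in 3.65% of all 27305 promoters, AP-1 type letters in 12.8% and 7.76%, and TATA letters in 14.9% and 12%, members first. TEAD type letters (GGAATG) were in 12.8% and 14.0%, ATF4 type letters (TGATGNAA) in 2.13% and 3.67%, and NF-kB type letters in 0 of 47 members and 5.07% of all. A match is a description of letters and not of a bound site.

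The members were expressed at low to moderate levels. Their table means had a median of 4.64 FPKM in the RBCK1 table, against 6.68 FPKM over all genes tested, and of 4.75 against 6.48 FPKM in the ANKRD35 table. In the MITD1 table the median of the 46 was 5.99 FPKM, against 7.81 FPKM. Only 25 members had a mean of 10 FPKM or more in the RBCK1 table and 26 in the ANKRD35 table. AC003092.1, an intergenic RNA on chromosome 7 known only by its clone, stood highest in both, with means of 85.9 and 44.0 FPKM. Recovered reads per member and library went down to 10 in the RBCK1 table and to 4 in the ANKRD35 table, and the median of each member's lowest library was 84 and 105 reads.

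After RBCK1 knockdown 34 of 129 members were called higher and 32 lower (limma on log2(FPKM + 1), Benjamini-Hochberg adjusted p under 0.05 over all 12227 genes tested). These shares of 26.4% and 24.8% stood beside 24.1% and 24.9% of all genes tested. After ANKRD35 knockdown 19 members were called higher and 12 lower, 14.7% and 9.30%, beside 19.4% and 16.9% of the 11890 genes tested. That split turned with a correction for gene length and GC content, under which 10 members were called higher and 38 lower, beside 21.2% of 11885 genes in each direction. After MITD1 knockdown 22 of the 42 members tested were called higher and 2 lower, 52.4% and 4.76%, beside 30.0% and 35.6% of 10415 genes. For the same 42 members the RBCK1 comparison gave 12 higher and 13 lower, and the ANKRD35 comparison 3 higher and 6 lower. The median change of the members was -0.04 (RBCK1), 0.02 (ANKRD35) and 0.22 (MITD1) on the log2(FPKM + 1) scale, beside 0.01, 0.03 and -0.03 over all genes tested.

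**Figure D1:**
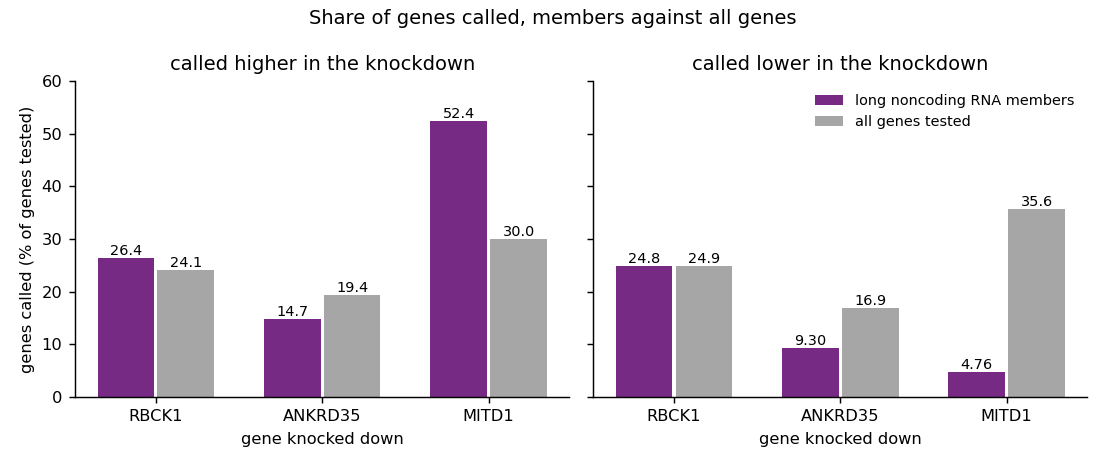
Bars show the percentage of genes called higher (left panel) or lower (right panel) in the knockdown, for the long noncoding RNA members (purple) and all genes tested (grey), by gene knocked down on the horizontal axis. The members stand near all genes for RBCK1, at 26.4% against 24.1% called higher, and above them for MITD1, at 52.4% against 30.0%.

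Most changes were modest. Called increases had a median log2 change of 0.37 after RBCK1 knockdown, 0.47 after ANKRD35 knockdown and 0.44 after MITD1 knockdown, and called decreases had medians of -0.55, -0.49 and -0.59. A log2 change of at least 1 was reached by 5 members after RBCK1 knockdown, all lower, by 3 after ANKRD35 knockdown (2 higher, 1 lower) and by 3 after MITD1 knockdown, all higher. After RBCK1 knockdown 20 of 74 lincRNA members (27.0%) and 14 of 55 antisense members (25.5%) were called higher, beside 24.1% of all genes tested. After ANKRD35 knockdown 15 (20.3%) and 4 (7.27%) were called higher, beside 19.4%. After MITD1 knockdown 13 of 23 (56.5%) and 9 of 19 (47.4%) were, beside 30.0%. Called lower were 23 lincRNA (31.1%) and 9 antisense members (16.4%) after RBCK1 knockdown, beside 24.9% of all genes tested. After ANKRD35 knockdown 8 (10.8%) and 4 (7.27%) were lower, beside 16.9%, and after MITD1 knockdown 1 (4.35%) and 1 (5.26%), beside 35.6%. The 3 knockdown libraries did not overlap the 3 controls in 72 of the 129 members after RBCK1 knockdown (55.8%, beside 59.0% of all genes tested). After ANKRD35 knockdown the groups did not overlap in 48 of 129 members (37.2%, beside 52.2%), and after MITD1 knockdown in 25 of 42 (59.5%, beside 70.4%).

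MALAT1, the abundant RNA of nuclear speckles (chr11:65497688-65506516, intergenic, 1 exon), was called in all 3 comparisons. MALAT1 had 16.4, 14.6 and 14.4 FPKM in shRBCK1 libraries, against 28.1, 28.3 and 28.4 FPKM in shcontrol libraries. MALAT1 had 8.26, 8.58 and 7.85 FPKM in siANKRD35 libraries, against 17.7, 16.8 and 17.1 FPKM in their controls. The groups did not overlap in either table, and every knockdown library was far below every control library. The log2 changes were -0.86, SE 0.0495, adjusted p = 1.19e-05 after RBCK1 knockdown and -0.98, SE 0.0694, adjusted p = 0.000541 after ANKRD35 knockdown. In bulk RNA a smaller share of cells with a transcript and less of it per cell cannot be told apart. MALAT1 had 41.2, 37.95 and 46.9 FPKM in siMITD1 libraries, against 31.6, 30.3 and 33.4 FPKM in their controls. Here all siMITD1 libraries were higher (log2 change 0.39, SE 0.0709, adjusted p = 0.00131). Its exons share 396 bases with a gene annotated on the opposite strand.

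NEAT1, the scaffold of paraspeckles, lies upstream of MALAT1 on the same strand (chr11:65422774-65445540). NEAT1 had 4.68, 4.51 and 4.75 FPKM in shRBCK1 libraries, against 10.9, 11.3 and 13.3 FPKM in shcontrol libraries. The shRBCK1 libraries lay close together, below all shcontrol libraries (log2 change -1.18, SE 0.0718, adjusted p = 1.59e-05). NEAT1 had 19.1, 14.7 and 15.03 FPKM in siANKRD35 libraries, against 25.9, 25.3 and 24.2 FPKM in their controls. Again no knockdown library reached a control library (log2 change -0.61, SE 0.107, adjusted p = 0.00621). NEAT1 had 3.96, 4.60 and 4.82 FPKM in siMITD1 libraries, against 3.89, 3.73 and 4.07 FPKM in their controls. In that table the groups overlapped and NEAT1 was not called (log2 change 0.16, SE 0.0695, adjusted p = 0.0778). The ANKRD35 call was lost with a correction for gene length and GC content (log2 change -0.33, adjusted p = 0.117), and NEAT1 is 22767 bases long.

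Genes for the proteins of these bodies were counted beside them. Of all genes tested, 24.1% were called higher and 24.9% lower (RBCK1), 19.4% and 16.9% (ANKRD35), and 30.0% and 35.6% (MITD1). Of 17 paraspeckle protein genes, 9 were called higher and 4 lower after RBCK1 knockdown (median log2 change 0.11), and 1 higher and 2 lower after ANKRD35 knockdown (median 0.00). After MITD1 knockdown 2 of 16 were higher and 10 lower (median -0.19). SFPQ, a core paraspeckle protein that NEAT1 binds, averaged 42.0 FPKM in siANKRD35 libraries, against 55.0 FPKM in their controls (log2 change -0.38, adjusted p = 0.00818). SMARCA4, a chromatin remodeller on that list, was lower as well (log2 change -0.69, adjusted p = 0.00618), and PSPC1, a core paraspeckle protein, was higher, with 17.8 FPKM in siANKRD35 libraries, against 13.8 FPKM in their controls (log2 change 0.35, adjusted p = 0.0102). Of 20 nuclear speckle protein genes, 3 were higher and 8 lower after RBCK1 knockdown, 2 higher and 2 lower after ANKRD35 knockdown, and 1 of 19 higher and 12 lower after MITD1 knockdown. SRRM2, a scaffold of speckles, averaged 9.83 FPKM in siANKRD35 libraries, against 22.4 FPKM in their controls (log2 change -1.11, adjusted p = 0.000324). SON, another speckle scaffold, was lower (log2 change -0.60, adjusted p = 0.00595). The splicing factors SRSF2 (log2 change 0.58, adjusted p = 0.0115) and SRSF7 (log2 change 0.23, adjusted p = 0.0369) were higher. Over all genes tested the ANKRD35 changes ran against gene length (Spearman rho -0.41). The changes of these protein genes are given without a correction for it.

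**Figure D2:**
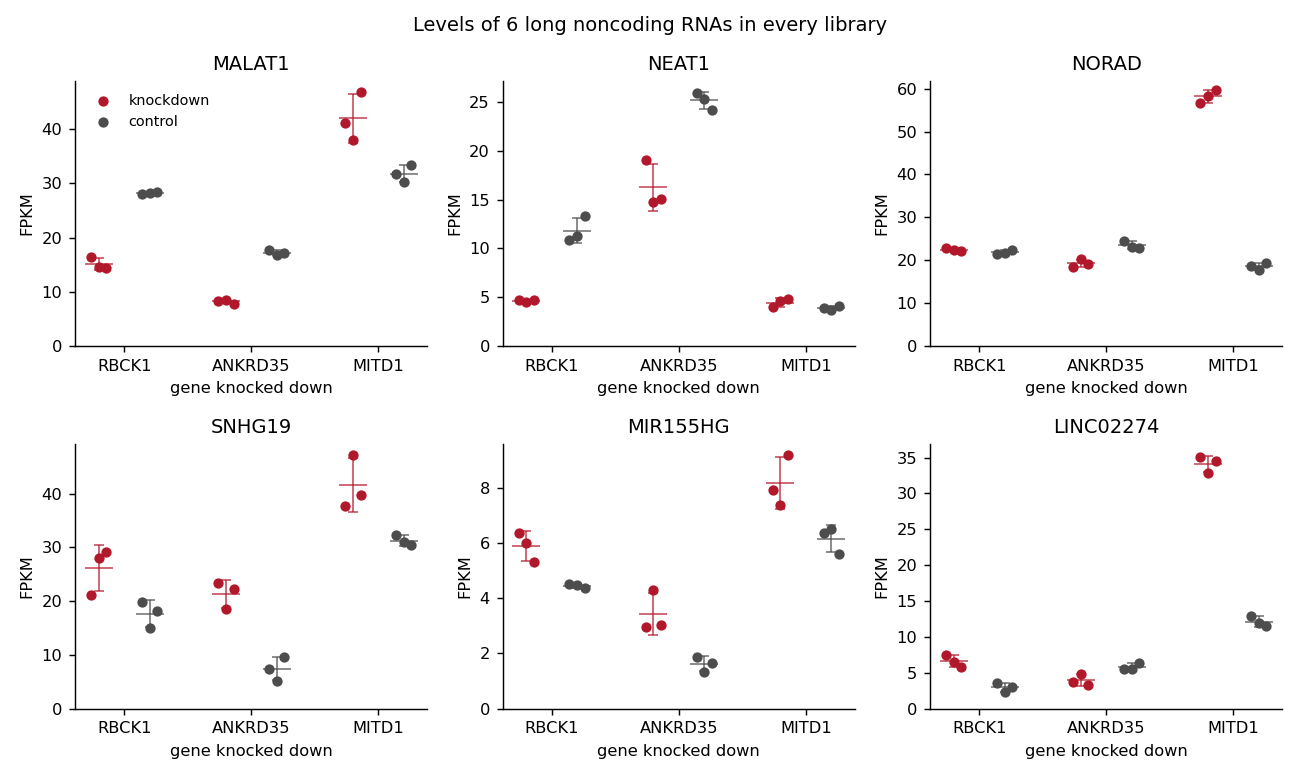
FPKM (vertical axis, from 0) of 6 members in every library, by gene knocked down; red points are knockdown libraries, grey points control libraries, and the bars give the mean and SD of 3 libraries. MALAT1 was lower in shRBCK1 and siANKRD35 libraries and higher in siMITD1 libraries, and NORAD stood at 56.7 to 59.7 FPKM in siMITD1 libraries, against 17.8 to 19.3 FPKM in their controls.

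The snoRNA host transcripts changed in different directions after RBCK1 knockdown. Of 24 hosts tested from a list of 26, 7 were called higher and 11 lower (median log2 change -0.15), and among the 8 members on that list 2 were higher and 4 lower. Of all genes tested, 24.1% were called higher and 24.9% lower. ZFAS1, which starts next to the coding gene ZNFX1 on the opposite strand, fell most among these 8 members. ZFAS1 had 14.6, 14.6 and 11.8 FPKM in shRBCK1 libraries, against 26.1, 29 and 30.04 FPKM in shcontrol libraries. No shRBCK1 library came near a control library (log2 change -1.01, SE 0.0859, adjusted p = 8.46e-05). SNHG15, the host of SNORA9, followed. SNHG15 had 9.40, 9.49 and 9.44 FPKM in shRBCK1 libraries, against 16.9, 17.99 and 17.5 FPKM in shcontrol libraries. The 3 shRBCK1 values were almost equal and below every control (log2 change -0.82, SE 0.0366, adjusted p = 2.76e-06). SNHG12, host of several H/ACA box snoRNAs, and EPB41L4A-AS1, host of SNORA13, were also called lower, with log2 changes of -0.53 (adjusted p = 5.98e-05) and -0.47 (adjusted p = 0.000162). SNHG4 was called higher (log2 change 0.28, SE 0.0559, adjusted p = 0.00466).

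SNHG19 (chr16:2154797-2155358, minus strand), the host of the SNORD60 sequence printed above, was called higher in all 3 comparisons. SNHG19 had 21.2, 28.02 and 29.2 FPKM in shRBCK1 libraries, against 19.9, 14.9 and 18.2 FPKM in shcontrol libraries. SNHG19 had 23.3, 18.5 and 22.3 FPKM in siANKRD35 libraries, against 7.48, 5.24 and 9.58 FPKM in their controls. SNHG19 had 37.6, 47.2 and 39.7 FPKM in siMITD1 libraries, against 32.4, 30.96 and 30.4 FPKM in their controls. The groups did not overlap in any of the 3 tables. The log2 changes were 0.54, SE 0.136, adjusted p = 0.0139 in the RBCK1 comparison, 1.43, SE 0.193, adjusted p = 0.00262 in the ANKRD35 comparison and 0.39, SE 0.0735, adjusted p = 0.00153 in the MITD1 comparison. SNHG19 is only 342 bases long, and its RBCK1 call was lost without a filter on low values (adjusted p = 0.0678). Its promoter neighbour TRAF7, a coding gene starting 340 bases away on the opposite strand, was not called in any comparison.

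SNHG8, host of SNORA24, was higher after ANKRD35 and MITD1 knockdown. SNHG8 had 49.6, 45.8 and 43.1 FPKM in siANKRD35 libraries, against 36.9, 37.8 and 37.8 FPKM in their controls. SNHG8 had 23.3, 26.5 and 29.4 FPKM in siMITD1 libraries, against 17.7, 16.1 and 19.7 FPKM in their controls. The groups did not overlap in either table (log2 change 0.29, SE 0.0747, adjusted p = 0.0231; log2 change 0.54, SE 0.0897, adjusted p = 0.00076). In the ANKRD35 comparison the call was lost without control replicate 1, 2 or 3, with quantile normalization, with the replicate number as a block and with the length and GC correction (adjusted p up to 0.484). In shRBCK1 libraries SNHG8 had 18.5, 23.7 and 21.6 FPKM, against 20.4, 26.1 and 20.2 FPKM in shcontrol libraries, and it was not called.

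After ANKRD35 knockdown 4 of 24 hosts were called higher and 0 lower (median 0.12), and after MITD1 knockdown 11 of 20 higher and 2 lower (median 0.18). The shares of all genes called higher and lower were 24.1% and 24.9% (RBCK1), 19.4% and 16.9% (ANKRD35) and 30.0% and 35.6% (MITD1). SNHG7 and SNHG12 were among the MITD1 increases, with log2 changes of 0.22 (adjusted p = 0.0118) and 0.33 (adjusted p = 0.00506). SNHG15 fell in this comparison too. SNHG15 had 6.56, 7.40 and 6.98 FPKM in siMITD1 libraries, against 10.5, 9.88 and 9.36 FPKM in their controls. All siMITD1 libraries were below all controls (log2 change -0.45, SE 0.0572, adjusted p = 0.000152). ZFAS1 averaged 12.5 FPKM in siMITD1 libraries and 12.8 FPKM in their controls and was not called. Of 12 genes for proteins of snoRNPs, the particles that carry snoRNAs, 2 were higher and 1 lower after RBCK1 knockdown, 4 higher and 0 lower after ANKRD35 knockdown, and 1 higher and 8 lower after MITD1 knockdown. The ANKRD35 increases with the largest change were SNU13, a snoRNA-binding protein (log2 change 0.83, adjusted p = 0.000764), and FBL, the methyltransferase fibrillarin (log2 change 0.61, adjusted p = 0.00861). These are given without a correction for gene length and GC content.

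**Figure D3:**
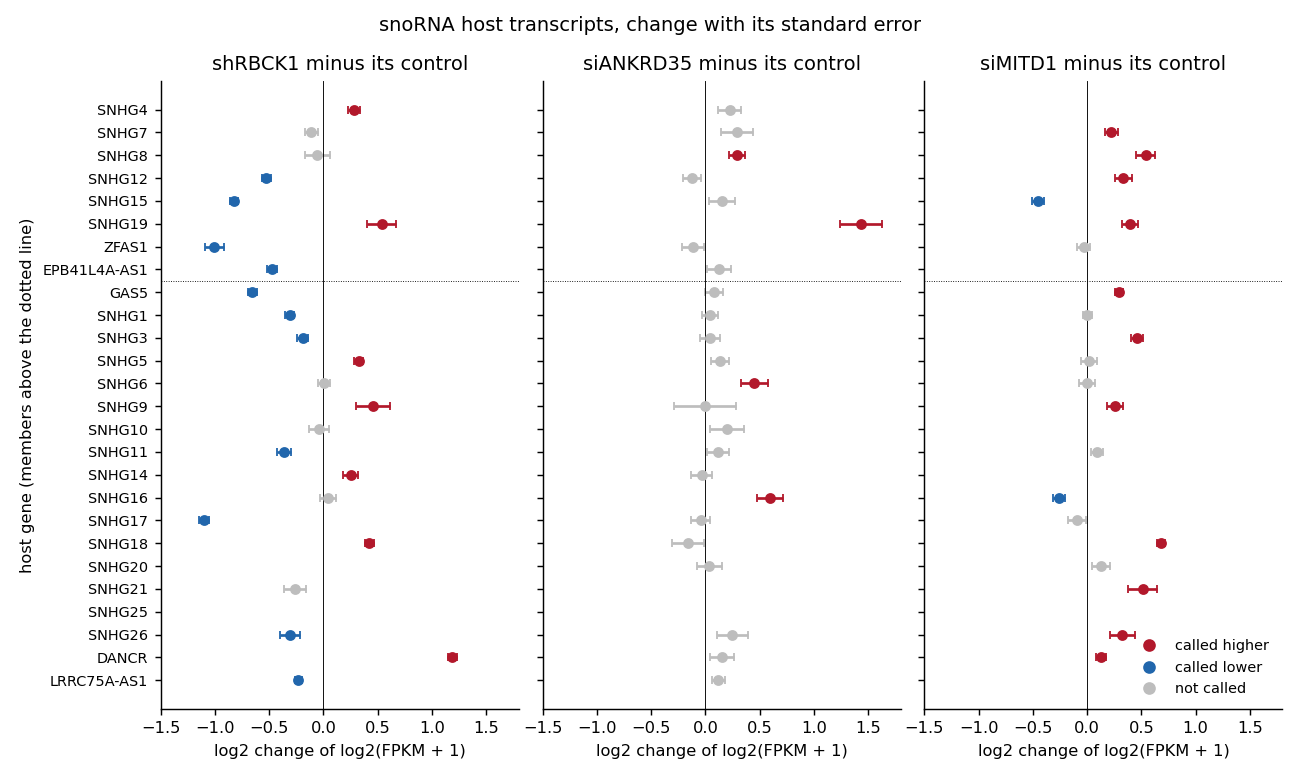
Log2 change (knockdown minus control, horizontal axis) of the snoRNA host transcripts, with its standard error, in the 3 comparisons; members stand above the dotted line and other hosts below it, red is called higher, blue called lower and grey not called. SNHG19 lies to the right in all 3 panels, ZFAS1 and SNHG15 lie far to the left for shRBCK1, and SNHG15 lies to the left for siMITD1.

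MIR155HG, the precursor of miR-155 and a transcript known to respond to inflammatory signals (chr21:25561909-25575168), rose in all 3 comparisons. MIR155HG had 6.36, 5.99 and 5.30 FPKM in shRBCK1 libraries, against 4.51, 4.48 and 4.36 FPKM in shcontrol libraries. MIR155HG had 2.94, 4.29 and 3.03 FPKM in siANKRD35 libraries, against 1.88, 1.34 and 1.67 FPKM in their controls. MIR155HG had 7.92, 7.36 and 9.19 FPKM in siMITD1 libraries, against 6.35, 6.50 and 5.58 FPKM in their controls. Every knockdown library was above every control of its table. The changes were 0.33, SE 0.0632, adjusted p = 0.00382 after RBCK1 knockdown, 0.74, SE 0.141, adjusted p = 0.00804 after ANKRD35 knockdown and 0.36, SE 0.081, adjusted p = 0.00444 after MITD1 knockdown, and each call held under the 12 alternatives tried for each comparison.

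MIR22HG, which contains miR-22, moved in opposite directions. MIR22HG had 5.52, 5.31 and 5.31 FPKM in shRBCK1 libraries, against 8.25, 7.28 and 7.36 FPKM in shcontrol libraries. MIR22HG had 9.58, 10.4 and 9.02 FPKM in siANKRD35 libraries, against 6.71, 7.68 and 7.74 FPKM in their controls. It was below its controls in every shRBCK1 library (log2 change -0.43, SE 0.054, adjusted p = 0.000539) and above them in every siANKRD35 library (log2 change 0.35, SE 0.0872, adjusted p = 0.0208). In the ANKRD35 comparison the call was lost without control replicate 1, 2 or 3 and with the length and GC correction (adjusted p up to 0.152). In the MITD1 table MIR22HG is listed at 0 in all 6 libraries. MIR222HG averaged 2.49 ± 0.05 FPKM in shRBCK1 libraries, against 3.26 ± 0.47 FPKM in shcontrol libraries (SD, n = 3 each; log2 change -0.28, SE 0.0852, adjusted p = 0.0281). The MIR222HG call was lost without shRBCK1 replicate 1, 2 or 3, without control replicate 2 or 3 and without a filter on low values (adjusted p up to 0.0964). In siANKRD35 libraries it averaged 5.14 FPKM, against 4.02 FPKM in their controls, without a call. MIR4435-2HG fell slightly after RBCK1 knockdown (log2 change -0.17, SE 0.0505, adjusted p = 0.027) and rose after MITD1 knockdown (log2 change 0.46, SE 0.0578, adjusted p = 0.000152). The MIR4435-2HG call was lost without shRBCK1 replicate 2 or 3, without control replicate 1, 2 or 3 and without a filter on low values (adjusted p up to 0.0734). On the list of 22 microRNA hosts, 2 of 10 tested were higher and 4 lower after RBCK1 knockdown, 3 of 7 higher after ANKRD35 knockdown and 3 of 6 higher after MITD1 knockdown, with 0 lower in the last 2. On a list of 13 interferon and NF-kB linked RNAs, which shares MIR155HG and MIR22HG with it, 1 of 6 was higher and 3 lower after RBCK1 knockdown, 3 of 5 higher and 0 lower after ANKRD35 knockdown and 4 of 4 higher after MITD1 knockdown. All genes tested gave 24.1% higher and 24.9% lower (RBCK1), 19.4% and 16.9% (ANKRD35), and 30.0% and 35.6% (MITD1).

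NORAD, a cytoplasmic RNA known to bind Pumilio proteins (chr20:36045622-36050960, 1 exon), had the largest increase of any member after MITD1 knockdown. NORAD had 56.7, 58.2 and 59.7 FPKM in siMITD1 libraries, against 18.7, 17.8 and 19.3 FPKM in their controls. The groups lay far apart, with a ratio of means of 3.13 (log2 change 1.59, SE 0.0375, adjusted p = 1.94e-08). NORAD had 18.5, 20.2 and 19.2 FPKM in siANKRD35 libraries, against 24.6, 23.2 and 22.9 FPKM in their controls. All siANKRD35 libraries were below their controls (log2 change -0.28, SE 0.0708, adjusted p = 0.0228), and the call was lost without siANKRD35 replicate 3, without control replicate 1, 2 or 3 and with the replicate number as a block (adjusted p up to 0.111). In the RBCK1 table NORAD averaged 22.5 FPKM in shRBCK1 libraries and 21.9 FPKM in shcontrol libraries and was not called.

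LINC02274, an intergenic RNA on chromosome 14 (chr14:73822559-73830135), was called in all 3 comparisons. LINC02274 had 7.55, 6.55 and 5.81 FPKM in shRBCK1 libraries, against 3.65, 2.28 and 2.97 FPKM in shcontrol libraries. LINC02274 had 3.71, 4.88 and 3.28 FPKM in siANKRD35 libraries, against 5.50, 5.53 and 6.43 FPKM in their controls. LINC02274 had 35.03, 32.9 and 34.6 FPKM in siMITD1 libraries, against 12.98, 11.99 and 11.5 FPKM in their controls. Every shRBCK1 and siMITD1 library was above, and every siANKRD35 library below, the controls of its table. The log2 changes were 0.95, SE 0.134, adjusted p = 0.000959 (RBCK1), -0.47, SE 0.131, adjusted p = 0.0298 (ANKRD35) and 1.42, SE 0.048, adjusted p = 1.17e-07 (MITD1). In the ANKRD35 comparison the call was lost without siANKRD35 replicate 1 or 3, without control replicate 1, 2 or 3 and without a filter on low values (adjusted p up to 0.108). Its level differed between tables as well, with 11.5 to 13.0 FPKM in the MITD1 controls and 2.28 to 3.65 FPKM in shcontrol libraries, values that come from tables scaled separately.

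LINC00958, an intergenic RNA of chromosome 11, was the remaining member with a log2 change of at least 1 after MITD1 knockdown. LINC00958 had 24.9, 24.8 and 25.4 FPKM in siMITD1 libraries, against 12.04, 12.4 and 10.8 FPKM in their controls. The groups did not overlap (log2 change 1.03, SE 0.0504, adjusted p = 6.82e-07). LINC02057, on chromosome 5, moved in opposite directions in 2 comparisons. LINC02057 had 4.48, 4.17 and 2.68 FPKM in shRBCK1 libraries, against 9.40, 10.5 and 8.67 FPKM in shcontrol libraries. LINC02057 had 4.68, 3.64 and 4.07 FPKM in siMITD1 libraries, against 1.84, 1.75 and 1.56 FPKM in their controls. It was called lower after RBCK1 knockdown (log2 change -1.16, SE 0.147, adjusted p = 0.0006) and higher after MITD1 knockdown (log2 change 0.92, SE 0.0838, adjusted p = 2.21e-05). EBLN3P, a transcript with a bornavirus-like nucleoprotein remnant, rose after MITD1 knockdown (log2 change 0.66, SE 0.0466, adjusted p = 4.76e-06) and after RBCK1 knockdown (log2 change 0.25, SE 0.0543, adjusted p = 0.00688).

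The MITD1 decreases were SNHG15 and LOXL1-AS1. LOXL1-AS1 is antisense to LOXL1, the gene of a lysyl oxidase that crosslinks elastin and collagen. LOXL1-AS1 had 2.25, 2.97 and 2.69 FPKM in siMITD1 libraries, against 4.96, 4.57 and 5.43 FPKM in their controls. The groups were separate (log2 change -0.72, SE 0.086, adjusted p = 0.000105). LOXL1 itself averaged 12.2 FPKM in siMITD1 libraries, against 20.1 FPKM in their controls (log2 change -0.68, adjusted p = 2.96e-05), and the 2 genes share 335 exon bases on opposite strands.

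Transcripts of the HOX clusters, which lie among the homeobox genes that pattern the body axis, were counted as a list of 18 with imprinted RNAs. After RBCK1 knockdown 4 of 9 tested were higher and 0 lower, after ANKRD35 knockdown 0 of 7 higher and 1 lower, and after MITD1 knockdown 2 of 7 higher and 1 lower. The shares over all genes, higher and lower, were 24.1% and 24.9% (RBCK1), 19.4% and 16.9% (ANKRD35) and 30.0% and 35.6% (MITD1). HOTAIRM1 rose after RBCK1 knockdown. HOTAIRM1 had 8.995, 9.73 and 9.16 FPKM in shRBCK1 libraries, against 6.27, 6.62 and 6.32 FPKM in shcontrol libraries. The groups did not overlap (log2 change 0.47, SE 0.0449, adjusted p = 0.000141). HOXD-AS2 rose as well (log2 change 0.32, SE 0.0785, adjusted p = 0.0118); its call was lost without a filter on low values (adjusted p = 0.0503). HAGLR, in the HOXD cluster, rose after MITD1 knockdown. HAGLR had 8.20, 8.72 and 7.78 FPKM in siMITD1 libraries, against 4.71, 4.84 and 5.60 FPKM in their controls. No control library reached an siMITD1 library (log2 change 0.61, SE 0.0671, adjusted p = 6.47e-05). HOXB-AS4, of the HOXB cluster and not on that list, averaged 5.13 ± 0.27 FPKM in siMITD1 libraries and 3.09 ± 1.25 FPKM in their controls (SD, n = 3 each; log2 change 0.62, SE 0.173, adjusted p = 0.0119), a call that was lost without a filter on low values (adjusted p = 0.0554).

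Among 11 p53 linked RNAs, 1 of 2 tested was higher and 1 lower after RBCK1 knockdown, 0 of 4 higher and 1 lower after ANKRD35 knockdown, and 0 of 1 called after MITD1 knockdown. The lower member was PVT1, a neighbour of MYC. PVT1 had 2.40, 2.28 and 2.15 FPKM in shRBCK1 libraries, against 4.59, 4.97 and 5.01 FPKM in shcontrol libraries. No shRBCK1 library overlapped a control (log2 change -0.84, SE 0.0575, adjusted p = 2.82e-05). TP53TG1, a target of p53, was higher (log2 change 0.37, SE 0.0958, adjusted p = 0.015), a call that was lost without a filter on low values and on recovered reads (adjusted p up to 0.0634). The list of 8 hypoxia linked RNAs held no member. On it, 2 of 2 tested were higher after RBCK1 knockdown, 0 of 2 were called after ANKRD35 knockdown and none was tested in the MITD1 table. Of all genes, 24.1% were higher and 24.9% lower (RBCK1), 19.4% and 16.9% (ANKRD35), and 30.0% and 35.6% (MITD1).

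AL356234.3 and AC245041.1, both named only by clone, had the 2 largest decreases after RBCK1 knockdown. AL356234.3 had 0.674, 1.07 and 1.10 FPKM in shRBCK1 libraries, against 4.80, 3.76 and 2.90 FPKM in shcontrol libraries. All shRBCK1 libraries of this chromosome 6 RNA were below 1.2 FPKM and all controls above 2.9 FPKM (log2 change -1.30, SE 0.155, adjusted p = 0.000439). AC245041.1 had 1.64, 1.79 and 2.42 FPKM in shRBCK1 libraries, against 5.89, 5.36 and 6.73 FPKM in shcontrol libraries. AC245041.1 had 1.20, 2.09 and 1.62 FPKM in siANKRD35 libraries, against 7.34, 4.58 and 6.39 FPKM in their controls. AC245041.1, on chromosome 10, thus fell after both knockdowns without overlap between groups (log2 change -1.25, SE 0.112, adjusted p = 0.000109; log2 change -1.42, SE 0.182, adjusted p = 0.00225). LINC00944 averaged 2.55 ± 0.53 FPKM in shRBCK1 libraries, against 5.89 ± 0.90 FPKM in shcontrol libraries (SD, n = 3 each; log2 change -0.96, SE 0.126, adjusted p = 0.000719).

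Among the increases, AC048341.2 on chromosome 12 rose after both the RBCK1 and the ANKRD35 knockdown. AC048341.2 had 4.89, 4.70 and 5.54 FPKM in shRBCK1 libraries, against 1.79, 2.41 and 2.53 FPKM in shcontrol libraries. AC048341.2 had 7.46, 8.38 and 7.16 FPKM in siANKRD35 libraries, against 1.59, 2.50 and 2.04 FPKM in their controls. The groups did not overlap in either table (log2 change 0.90, SE 0.1, adjusted p = 0.000306; log2 change 1.52, SE 0.125, adjusted p = 0.000764). BAIAP2-DT, divergent from the coding gene BAIAP2, rose after RBCK1 knockdown (log2 change 0.83, SE 0.0613, adjusted p = 4.22e-05) and fell after ANKRD35 knockdown (log2 change -0.51, SE 0.14, adjusted p = 0.0286). In the ANKRD35 comparison the call was lost without siANKRD35 replicate 3, without control replicate 1, 2 or 3, without a filter on low values and with quantile normalization (adjusted p up to 0.0942). RBMS3-AS3, AC024896.1, AC015922.2 and AC026401.3 were the other large increases after RBCK1 knockdown, with log2 changes of 0.65, 0.60, 0.59 and 0.55. RBMS3-AS3 lost its call without a filter on low values (adjusted p = 0.0519), and AC015922.2 lost it on recovered reads (adjusted p = 0.0568). FGD5-AS1, one of the highest members, had 22.4, 22.9 and 21.8 FPKM in shRBCK1 libraries, against 16.5, 18.3 and 17.0 FPKM in shcontrol libraries (log2 change 0.36, SE 0.0456, adjusted p = 0.000619), and it also rose after MITD1 knockdown (log2 change 0.22, SE 0.0365, adjusted p = 0.000735).

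After ANKRD35 knockdown NRAV, an antisense RNA described as a negative regulator of the antiviral response, fell as well. NRAV had 15.8, 12.9 and 16.2 FPKM in siANKRD35 libraries, against 24.3, 22.4 and 22.9 FPKM in their controls. All siANKRD35 libraries were below all controls (log2 change -0.60, SE 0.0986, adjusted p = 0.00482). AL355338.1, on chromosome 13, was higher (log2 change 0.70, SE 0.101, adjusted p = 0.00322). The highest member, AC003092.1, had 45.9, 61.1 and 53.3 FPKM in siANKRD35 libraries, against 32.1, 32.7 and 38.9 FPKM in their controls (log2 change 0.61, SE 0.125, adjusted p = 0.0105), a call that was lost with quantile normalization (adjusted p = 0.063). In the RBCK1 table it had 86.2, 76.9 and 79.4 FPKM in shRBCK1 libraries, against 90.7, 90.4 and 92.0 FPKM in shcontrol libraries (log2 change -0.17, SE 0.0443, adjusted p = 0.0154); the call was lost without shRBCK1 replicate 3, without a filter on low values and with quantile normalization (adjusted p up to 0.486). AC015912.3, whose single exon starts 106 bases from the start of the ubiquitin ligase gene TRIM25, was higher (log2 change 0.93, SE 0.271, adjusted p = 0.0353) while TRIM25 was lower (log2 change -0.67, adjusted p = 0.00211). The AC015912.3 call was lost without siANKRD35 replicate 1, 2 or 3, without control replicate 1 and without a filter on low values (adjusted p up to 0.11). ITGB1-DT and LINC01116 were also called higher (log2 change 0.50, SE 0.121, adjusted p = 0.0183; log2 change 0.34, SE 0.0777, adjusted p = 0.0157), and NOP14-AS1 and AC115618.2 lower (log2 change -0.45, SE 0.101, adjusted p = 0.0137; log2 change -0.61, SE 0.192, adjusted p = 0.045). The ITGB1-DT call was lost without siANKRD35 replicate 3, without control replicate 3, without a filter on low values and with the length and GC correction (adjusted p up to 0.194). The LINC01116 call was lost without siANKRD35 replicate 3, without control replicate 1 or 2, with quantile normalization and with the length and GC correction (adjusted p up to 0.622). The NOP14-AS1 call was lost without control replicate 1 or 3 (adjusted p up to 0.063). The AC115618.2 call was lost without siANKRD35 replicate 1, 2 or 3, without control replicate 1 or 2, without a filter on low values, with quantile normalization and on recovered reads (adjusted p up to 0.132).

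The ANKRD35 counts moved with single libraries and with gene length. Without siANKRD35 replicate 2 there were 28 members called higher and 18 lower, and without siANKRD35 replicate 3 there were 11 and 6. Without control replicate 1, 2 or 3 there were 8, 11 and 10 higher and 5 lower each time. The shares of all 11890 genes moved as well. They were 29.6% higher and 25.4% lower without siANKRD35 replicate 2, and 12.6% and 11.2% without siANKRD35 replicate 3. Without control replicate 1, 2 or 3 they were 10.2% and 9.36%, 9.81% and 9.25%, and 10.3% and 9.58%. Over all genes tested the change after ANKRD35 knockdown ran against gene length (Spearman rho -0.41 across 11890 genes of the same 6 libraries, which are not independent replicates), against 0.03 in the RBCK1 table and 0.09 in the MITD1 table. Of the 28 longest members (class over 3000 bases), 0 were called higher and 7 lower after ANKRD35 knockdown (median log2 change -0.16), beside 14.1% higher and 21.6% lower of all 8450 genes tested in that class (median -0.03). Of 49 members under 1000 bases 9 were higher and 2 lower (median 0.01), beside 15.8% and 6.47% of 928 genes (median 0.12). With each library corrected for length and GC content, 10 members were called higher and 38 lower, in place of 19 and 12, and the members' median change was -0.18. Of all 11885 genes in that fit, 2516 were called higher and 2520 lower. The part of length in these results was tested only by that correction. Called under each of the 12 alternatives were SNHG19, AL355338.1, AC009414.2, MIR155HG and AC048341.2 among the increases, and MALAT1, NRAV and AC245041.1 among the decreases.

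Across comparisons, 17 members were called after both RBCK1 and ANKRD35 knockdown. Both times higher were 7: AC048341.2, AL355338.1, FLJ46906, LINC01116, MIR155HG, RBMS3-AS3 and SNHG19, which is 20.6% of the 34 RBCK1 increases and 36.8% of the 19 ANKRD35 increases. Over all 10649 genes tested in both, these shares were 22.8% and 28.4%. Both times lower were 3: AC245041.1, MALAT1 and NEAT1, which is 9.38% of the 32 RBCK1 decreases and 25% of the 12 ANKRD35 decreases, beside 25.9% and 39.1% over all genes. BAIAP2-DT, LINC02274 and AC092171.2 were higher after RBCK1 and lower after ANKRD35 knockdown. They are 8.82% of the RBCK1 increases and 25% of the ANKRD35 decreases, beside 13.6% and 19.6% over all genes. MIR22HG, ITGB1-DT, AC003092.1 and AC009414.2 moved the reverse way, 12.5% of the RBCK1 decreases and 21.1% of the ANKRD35 increases, beside 15.9% and 20.8%. Of the 10649 genes, 602, 717, 360 and 440 fell in these 4 groups, in the order given. Of the 17 members, AC048341.2, MIR155HG, AC245041.1 and MALAT1 kept both calls under each of the 12 alternatives. In the 42 members also tested after MITD1 knockdown, 8 of the 12 RBCK1 increases (66.7%) and 4 of the 13 RBCK1 decreases (30.8%) were called higher there, which is 36.4% and 18.2% of the 22 MITD1 increases. Of the 42 members 22, or 52.4%, were called higher there whatever the RBCK1 call. Over the 10016 genes tested in both, 31.5% of the RBCK1 increases and 32.7% of the RBCK1 decreases were called higher after MITD1 knockdown, which is 26.8% and 28.0% of its increases. Called in all 3 were MIR155HG and SNHG19 (higher each time), LINC02274 (higher, lower, higher) and MALAT1 (lower, lower, higher), in the order RBCK1, ANKRD35, MITD1. The differences between comparisons were not tested. Called in neither the RBCK1 nor the ANKRD35 comparison were 49 members, and 4 of 42 were called in none of the 3: FLJ20021, GS1-124K5.4, LINC01117 and NRSN2-AS1. The shares of all genes called in neither, in none or in all 3 comparisons were not counted, so these member counts have no background beside them.

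**Figure D4:**
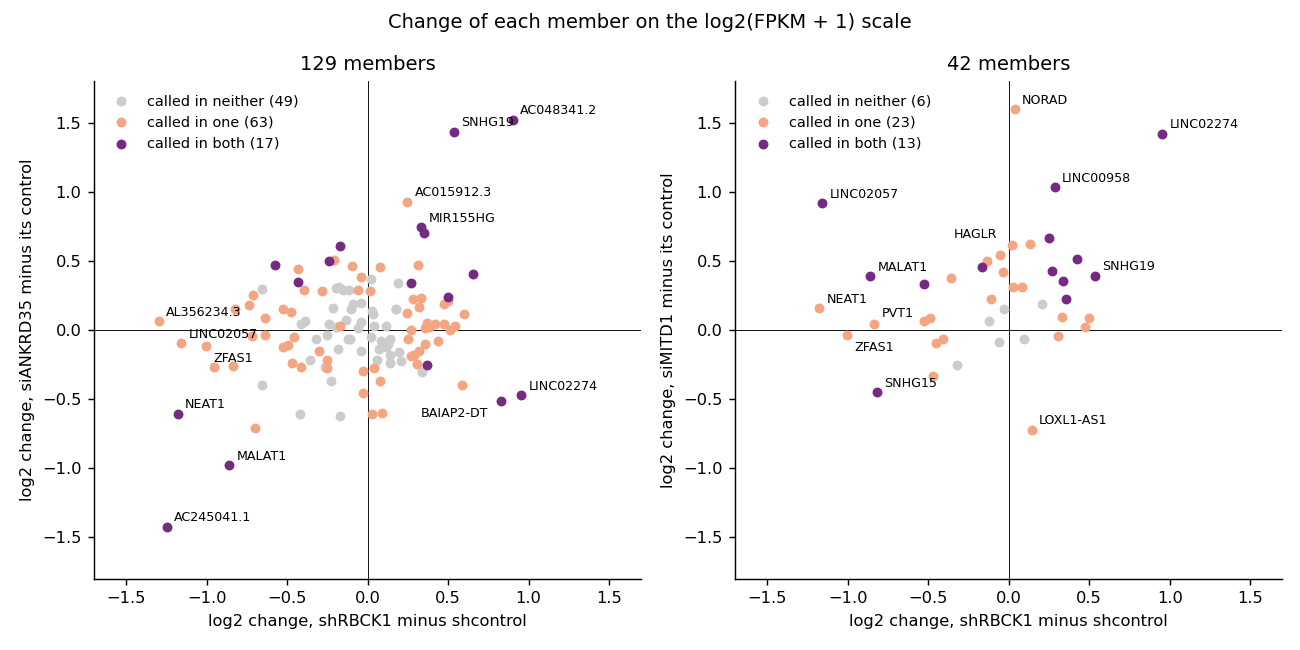
Log2 change of each member after RBCK1 knockdown (horizontal axis) against its change after ANKRD35 (left, 129 members) or MITD1 knockdown (right, 42 members), as log2(FPKM + 1) differences, control subtracted from knockdown; purple points were called in both comparisons, orange in 1 and grey in neither. MALAT1, NEAT1 and AC245041.1 lie low in both directions on the left, where 17 members were called in both, and NORAD lies high for MITD1 and near 0 for RBCK1 on the right.

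The libraries were made with a directional kit, but the strand used in counting is not given in the sources used here, so reads of a member and of a gene on the opposite strand may not be told apart where their exons overlap. By GENCODE 29, 33 of 55 antisense and 17 of 74 lincRNA members share exon bases with a gene on the opposite strand, and in 3 members at least 50% of exon bases are shared. The calls of these 50 members were 14 higher and 13 lower after RBCK1 knockdown, against 20 and 19 of the 79 members without such overlap. After ANKRD35 knockdown they were 4 and 4 of 50, against 15 and 8 of 79, and after MITD1 knockdown 10 and 1 of 19, against 12 and 1 of 23. Over all genes tested the shares, higher and lower, were 24.1% and 24.9% (RBCK1), 19.4% and 16.9% (ANKRD35) and 30.0% and 35.6% (MITD1).

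Each member was then set beside the coding gene it overlaps on the opposite strand (the most abundant where there are several). In the RBCK1 comparison 53 members had such a tested partner, 13 pairs had both genes called and 11 of the 13 moved in the same direction. Across the 53 pairs of the same 6 libraries the changes had a Pearson r of 0.558 and a Spearman rho of 0.479. In the ANKRD35 comparison 4 of 51 pairs had both called, 1 in the same direction (r 0.0264), and in the MITD1 comparison 5 of 19, 3 in the same direction (r 0.273). The partner was then chosen again among genes that share exon bases and among genes that do not, so these pairs are not a split of the 53. In the RBCK1 comparison r was 0.545 over 35 pairs that share exon bases, where 7 of 9 pairs with both genes called moved in the same direction, and 0.678 over 19 pairs that do not, where 4 of 4 did. In the ANKRD35 comparison r was 0.157 over 34 pairs with shared bases (0 of 1 in the same direction) and -0.287 over 18 without (1 of 3). In the MITD1 comparison 2 of 3 moved in the same direction both among 13 pairs with shared bases and among 7 without. Coding genes that start within 1 kb without overlap moved in the member's direction in 5 of 7 pairs with both called after RBCK1 knockdown, 0 of 2 after ANKRD35 knockdown and 0 of 3 after MITD1 knockdown.

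ZFAS1 and ZNFX1, a helicase-like protein gene of antiviral defence, were the largest pair. ZNFX1 averaged 15.3 FPKM in shRBCK1 libraries, against 44.6 FPKM in shcontrol libraries (log2 change -1.48, adjusted p = 4.31e-08), beside the fall of ZFAS1, and they share 249 exon bases. After ANKRD35 knockdown ZNFX1 averaged 8.31 FPKM, against 19.5 FPKM in the controls (log2 change -1.14, adjusted p = 0.000311), while ZFAS1 averaged 36.9 FPKM, against 39.7 FPKM, and was not called. AC099850.3, one of the highest members, had 58.5, 48.1 and 53.2 FPKM in shRBCK1 libraries, against 31.8, 34.9 and 45.3 FPKM in shcontrol libraries (log2 change 0.51, SE 0.127, adjusted p = 0.0127). Its partner PRR11, a gene of the cell cycle, rose with it (log2 change 0.46, adjusted p = 0.000332), with 97 shared exon bases, and the call of AC099850.3 was lost without a filter on low values (adjusted p = 0.0637). ITGB1-DT overlaps the integrin gene ITGB1 on the opposite strand, with 42 shared exon bases. It fell (log2 change -0.24, SE 0.0619, adjusted p = 0.016) while ITGB1 rose (log2 change 0.26, adjusted p = 0.000277). The ITGB1-DT call was lost without shRBCK1 replicate 3, without control replicate 3, without a filter on low values and on recovered reads (adjusted p up to 0.0763). NRAV fell after ANKRD35 knockdown while DYNLL1, a dynein light chain gene whose span it overlaps without shared exon bases, rose (log2 change 0.40, adjusted p = 0.0043).

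**Figure D5:**
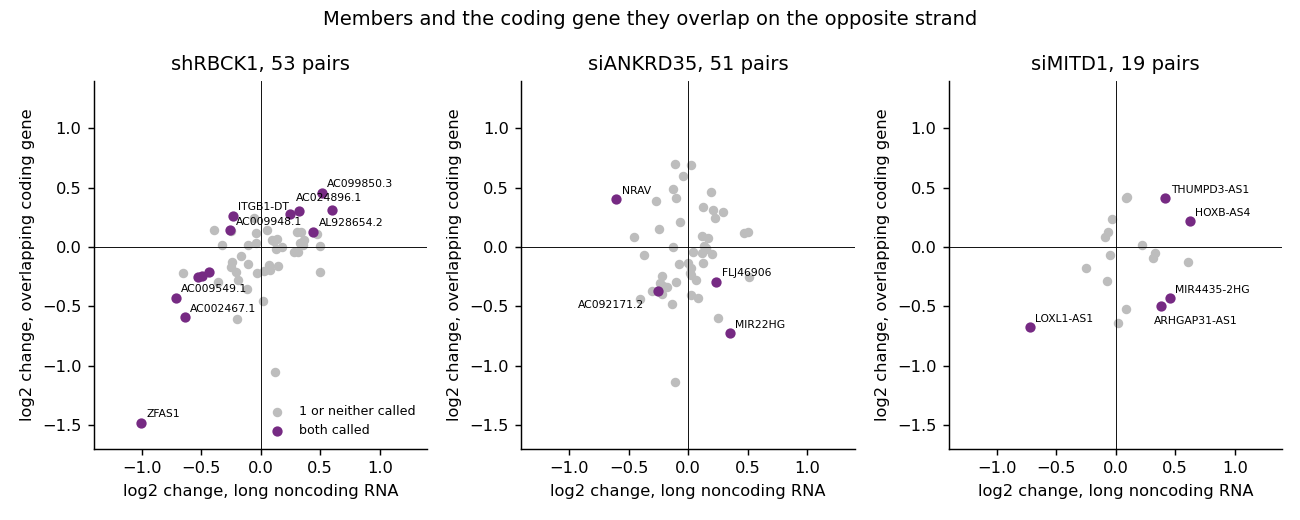
Log2 change of members (horizontal axis) against that of the coding gene they overlap on the opposite strand (vertical axis), as log2(FPKM + 1) differences, control subtracted from knockdown, 1 point a pair; purple points are pairs with both genes called. Of 13 such pairs for shRBCK1, 11 lie in the lower left or upper right of the panel, ZFAS1 the lowest, against 1 of 4 for siANKRD35.

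Factors that degrade noncoding transcripts were counted last. Beside them, all genes tested gave 24.1% higher and 24.9% lower (RBCK1), 19.4% and 16.9% (ANKRD35), and 30.0% and 35.6% (MITD1). Of 17 nonsense-mediated decay genes, 1 was higher and 5 lower after RBCK1 knockdown, 2 higher and 9 lower after ANKRD35 knockdown, and 7 higher and 6 lower after MITD1 knockdown. Of 20 genes of the nuclear exosome and its adaptors, 4 were higher and 5 lower after RBCK1 knockdown, 10 higher and 2 lower after ANKRD35 knockdown, and 4 of 18 higher and 8 lower after MITD1 knockdown. SMG1, the kinase of nonsense-mediated decay, averaged 2.38 FPKM in siANKRD35 libraries, against 4.42 FPKM in their controls (log2 change -0.68, adjusted p = 0.00279), and the decay endonuclease gene SMG6 was lower too (log2 change -0.66, adjusted p = 0.00205). EIF4A3 and RBM8A, proteins of the exon junction complex, were higher (log2 changes 0.39 and 0.44, adjusted p = 0.00583 and 0.0405). The exosome subunit EXOSC5 averaged 22.5 FPKM in siANKRD35 libraries, against 12.3 FPKM in their controls (log2 change 0.82, adjusted p = 0.00198), and EXOSC3 averaged 14.4 FPKM in siANKRD35 libraries, against 8.23 FPKM in their controls (log2 change 0.72, adjusted p = 0.0146). The adaptor genes ZFC3H1 and ZCCHC8 were lower (log2 changes -0.64 and -0.31, adjusted p = 0.0153 and 0.0262). Their part in the levels of the members was not tested. Their ANKRD35 changes are given without a correction for gene length and GC content.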

How the data were processed

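RNA of 786-O cells was extracted as total RNA and made into libraries with a directional kit, per the labels' protocols. The authors deposited 3 tables of FPKM per gene and library, each scaled on its own, with replicates in separate columns. For the aligner, the counter, the strand counted and the time of harvest, nothing is given in the sources used here. The submitters' processing notes list mm10, a mouse build, but the tables hold human genes, and all 58735 gene coordinates of the RBCK1 and ANKRD35 tables equal those of GENCODE 29 (GRCh38). Columns of the ANKRD35 table are headed as shRNA where the labels say siRNA, and their names match the sample titles otherwise. The 6 value columns that belong to no sample of the series were not used.

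Differences were tested with limma 3.58.1 in R 4.3.3 (trend fit, two-sided) on log2(FPKM + 1), within a table, for genes reaching 1 FPKM or more in 3 or more of the 6 libraries, with Benjamini-Hochberg adjustment over all genes tested and no minimum fold. A gene was called at an adjusted p under 0.05. Fold changes on this scale understate those of low genes. SE is the standard error of the log2 change. Because FPKM times gene length came in whole steps (within 0.01 of a read), reads were recovered for all genes of the RBCK1 and ANKRD35 tables and for 16664 of 18083 in the MITD1 table, and served for a voom test with TMM scaling. With 3 libraries a group, an exact permutation test could not pass the threshold, and it was not used.

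The 12 alternatives per comparison were a pseudocount of 0.1, no filter, quantile normalization, voom on recovered reads, a correction of each library for gene length and GC content, the replicate number as a block and each of 6 libraries left out. Members, lists and tests were chosen with earlier results of these data known. Named were, per comparison, the 8 largest called increases and decreases without overlap between groups, and the members called in all 3 comparisons. Members on a gene list, the 10 highest members, the 3 members and 3 genes nearest the limit and coding genes opposite a named antisense member were also named. For a protein list the rule was the 2 largest called changes each way per comparison. Only those of the ANKRD35 comparison are named here, and the RBCK1 and MITD1 comparisons have summary values only for these lists. Members outside the naming rule, listed by name because they were called in 2 comparisons or in none of 3, were chosen after their values were seen. Overlaps were taken from GENCODE 29, and sequences from GENCODE 29 with the GRCh38 genome and from RefSeq (GRCh38.p14). Python 3.11.15 with pandas 2.3.3, numpy 2.4.6 and matplotlib 3.10.9 was used.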

Additional observations from a re-analysis of the deposited data

How the results depend on the processing

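Without a filter on low values, 22 members were called higher after RBCK1 knockdown, beside 7.1% of 31694 genes. After ANKRD35 knockdown 12 were higher and 7 lower, beside 5.48% and 5.46% of 27910 genes. More genes enter the adjustment there. With the length and GC correction the ANKRD35 comparison gave 10 higher and 38 lower, of which 8 and 11 were called without it, and LINC00973 turned to -0.0284 on the log2 scale in place of 0.28 (the cause was not tested). Leaving out 1 library gave 8 to 28 higher and 5 to 18 lower in the ANKRD35 comparison, 29 to 32 and 28 to 35 in the RBCK1 comparison, and 20 to 22 and 2 to 3 in the MITD1 comparison. The 28 and 18 came without siANKRD35 replicate 2. Beside these, all genes gave 9.81% to 29.6% higher and 9.25% to 25.4% lower in the ANKRD35 comparison. They gave 19.7% to 21.7% and 20.8% to 23.0% in the RBCK1 comparison, and 27.6% to 27.9% and 33.1% to 33.8% in the MITD1 comparison. Not every correlation between same-numbered libraries was over 0.1 (-0.0874 to 0.179) and the labels do not tie the numbers together, so they were not taken as pairs. With the replicate block 32 members were higher and 34 lower (RBCK1), 16 and 11 (ANKRD35), and 22 and 5 (MITD1). The shares of all genes with that block were 21.0% and 22.8%, 19.2% and 15.6%, and 29.9% and 35.9%, in the same order. The other counts of members stayed within 1.5 times the reported ones. Of the alternative values for named members, 385 of 420 (RBCK1), 190 of 264 (ANKRD35) and 199 of 200 (MITD1) kept their direction and call. Voom on the MITD1 table covered 9556 genes and 38 members. Low reads limit the weakest members, which had as few as 4 reads in a library.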
